A study of Mus musculus with 15 samples.

Results

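The genes described here encode nuclear subunits of the 4 respiratory chain complexes and of the ATP synthase (complex V), with assembly factors of complexes I and II. They were chosen by symbol: every array probe whose RefSeq accession maps to a gene named with the prefix Nduf, Sdh, Uqcr, Cox4, Cox5, Cox6, Cox7, Cox8 or Atp5. This rule gave 97 genes on 128 probes, of 20659 named genes on the array, and 95 of the 97 passed the filter on dim probes and were tested with the 16032 genes of the whole fit. No probe was named for any of the 13 subunits encoded by mitochondrial DNA, so the set covers nuclear genes only. It is a part of them: 119 symbols of the reference fit the rule, of which 97 were on the array. The prefixes also leave out Cyc1 of complex III.

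Kidney RNA came from male C57/BJ mice operated on at 6 weeks of age and killed 20 weeks later. The 4 groups were high-fat diet after removal of the left kidney, or uninephrectomy (HFD-UNX, 4 arrays), high-fat diet after a sham operation in which the kidney was handled and left in place (HFD-sham, 3 arrays), chow or low-fat diet after uninephrectomy (LFD-UNX, 4 arrays) and chow or low-fat diet after the sham operation (LFD-sham, 4 arrays). Each array held the Cy3-labelled RNA of 1 mouse, and the labels state 6 mice per group. UNX mice had only the right kidney left to sample.

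The respiratory chain passes electrons from NADH (complex I) and succinate (complex II) through complex III and cytochrome c oxidase (complex IV) to oxygen, and the proton gradient it builds drives the ATP synthase. Kidney tubules, the proximal tubule above all, are packed with mitochondria because sodium reabsorption consumes much ATP. Several complex IV subunits exist as isoform pairs, of which one is used in most tissues and the other in heart and muscle, in lung, in testis or under low oxygen.

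Values are log2 of the processed spot signal minus the 75th percentile of that array, and a gene is said to pass where limma's p, adjusted by Benjamini-Hochberg over all 16032 genes, was under 0.05. The share of spots well above background, controls left out, was 60.5% to 73.4% per array. The 2 high-fat groups shared slides 1 and 2 and 1 scan day; the low-fat arrays were scanned on another day, UNX on slide 4 and sham on slide 3. Diet therefore cannot be told apart from scan day, nor low-fat surgery from slide. The 75th percentile of raw signal was 669 on HFD-sham replicate 1 and 3275 on HFD-sham replicate 3, and 1017 to 1913 on the other arrays. All 16 proximal tubule markers were well above background on all 15 arrays, with a mean level of 5.56 to 5.86 in HFD-UNX, 5.35 to 5.82 in HFD-sham, 5.65 to 5.81 in LFD-UNX and 5.53 to 5.70 in LFD-sham.

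Of the 95 tested genes, 94 were well above background on all 15 arrays. The exception was Atp5a1, the catalytic-ring alpha subunit of the ATP synthase, whose spot carried an outlier mark on LFD-sham replicate 2, so its values there rest on 3 arrays. The genes not tested were Cox8c, a testis isoform that was well above background on 0 arrays, and Cox7b2, another testis isoform that was well above background on 2 arrays. The tested set held 7 core, 29 accessory and 8 assembly genes of complex I, 4 subunits and 4 assembly factors of complex II, 8 subunits of complex III, 12 of complex IV, 17 of complex V and 6 tissue or hypoxia isoforms.

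The question put to diet was whether a high-fat diet changed this machinery in the kidney, with and without the loss of the other kidney. Few members moved. In sham mice 2 of 95 were higher on the high-fat diet, Cox4i2 and Uqcrc1, where 6.49% of all genes were higher, and 0 were lower, where 7.37% of all genes were. In UNX mice 3 of 95 were higher, Cox4i2, Cox6b1 and Uqcrc1, against 7.68% of all genes, and 2 were lower, Ndufab1 and Sdhc, against 6.51% of all genes. In either direction the shares of all genes were 13.9% in sham and 14.2% in UNX mice, so the members' shares of 2.11% and 5.26% lay below these. With quantile normalization 9 members passed in sham and 12 in UNX mice, where 15.2% and 15.6% of all genes did. With slides 1 and 2 as a fixed block 8 and 5 passed, where 19.3% and 15.9% of all genes did. Here and below, that block sets the high-fat groups at the level of slide 2 against the low-fat arrays. Its diet differences and calls thus depend on that reference. With the high-fat arrays of 1 slide alone, chosen after seeing the data, the counts in UNX mice were 42 of 95 on slide 1, where 41.1% of all genes passed, and 18 on slide 2, where 16.7% did, so the members were near the share of all genes there. In sham mice they were 11 on slide 1, which holds 1 HFD-sham array, and 21 on slide 2, where 20.7% and 24.7% of all genes passed. In sham mice 11 of 95 members had an unadjusted p under 0.05, and in UNX mice 10. Of all genes, 13.9% and 14.2% were under 0.05 even after adjustment, so neither count is high for the set. Leaving out single arrays moved the counts of members that passed. Without HFD-sham replicate 1, 1 member was higher and 8 lower in sham mice. Without HFD-sham replicate 2 none passed, and without HFD-sham replicate 3, 3 were higher and 1 lower. In UNX mice, without HFD-UNX replicate 3 there were 3 higher and 4 lower, and without HFD-UNX replicate 1 or 2, 1 higher and 1 lower. Without any one LFD-UNX array 1 or 2 members passed in UNX mice, and without LFD-sham replicate 1, 2 or 3, 1 passed in sham mice. The share of all genes is not set beside these counts without single arrays. They show how far the calls rest on single arrays, not whether the members differ from other genes. With slide as a random block, none of the members passed in either comparison. The lowest adjusted p for these 5 genes with that block was 0.15, for Cox4i2 in UNX mice. In whole-kidney RNA, fewer cells of a type and less RNA per cell cannot be told apart.

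Cox4i2 encodes the second isoform of complex IV subunit 4, expressed in lung and in oxygen-sensing cells, and it had the largest difference of the set between diets in both surgery groups. Its levels were -1.12, -1.08, -1.41 and -1.42 in HFD-UNX kidneys, against -2.08, -2.17, -2.11 and -2.16 in LFD-UNX kidneys. In sham mice they were -1.10, -1.19 and -1.91 on the high-fat diet, against -2.05, -2.25, -2.10 and -2.34 on the low-fat diet. High-fat and low-fat arrays did not overlap in either surgery group, although HFD-sham replicate 3 lay close to the low-fat arrays.

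The difference for Cox4i2 was 0.87 ± 0.16 in UNX mice (1.83-fold; SE, limma adjusted p = 0.0040) and 0.79 ± 0.18 in sham mice (1.72-fold; adjusted p = 0.012). With the high-fat arrays of 1 slide at a time it was 1.03 (slide 1) and 0.72 (slide 2) in UNX mice and 0.63 (slide 2) in sham mice, and passed. On slide 1 a single HFD-sham array gave 1.09. With slides 1 and 2 as a fixed block it was 0.69 in UNX and 0.66 in sham mice, and passed (adjusted p of 0.0087 and 0.010). Without HFD-sham replicate 2 the sham difference was 0.68, with an adjusted p of 0.053. After normexp background correction it did not pass, at 0.62 in UNX mice (adjusted p = 0.19) and 0.46 in sham mice (adjusted p = 0.40). Cox4i1, the isoform of the same subunit used in most tissues, did not pass: it was -0.27 ± 0.16 in UNX mice (SE, adjusted p = 0.29) and -0.34 ± 0.18 in sham mice (adjusted p = 0.21).

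Uqcrc1 encodes a core subunit of complex III that faces the matrix. Its levels were 5.26, 5.25, 4.60 and 4.73 in HFD-UNX kidneys, against 4.23, 4.18, 4.37 and 4.45 in LFD-UNX kidneys. In sham mice they were 5.31, 4.61 and 4.43 on the high-fat diet, against 3.95, 4.06, 3.98 and 4.16 on the low-fat diet. The diets did not overlap in either surgery group, and within the high-fat arrays those of slide 1 were higher than those of slide 2.

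The difference for Uqcrc1 was 0.65 ± 0.19 in UNX mice (1.57-fold; SE, limma adjusted p = 0.038) and 0.75 ± 0.21 in sham mice (1.68-fold; adjusted p = 0.032). Between slides 1 and 2 of the high-fat arrays, with surgery in the fit, Uqcrc1 itself differed by 0.67 ± 0.14 (SE, adjusted p = 0.042), about the size of the diet difference. With the high-fat arrays of slide 2 alone the diet difference was 0.36 in UNX mice and 0.48 in sham mice, and with those of slide 1 alone 0.95 and, from a single HFD-sham array, 1.27. The fixed block of slides 1 and 2 sets the high-fat groups at the level of slide 2. With it the diet difference was 0.32 in UNX mice and did not pass (limma adjusted p = 0.060). In sham mice it was 0.52 (adjusted p = 0.0064). The other core subunit, Uqcrc2, was at -0.14 in UNX and -0.05 in sham mice and the Rieske protein Uqcrfs1 at 0.01 and -0.10, and neither passed.

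Cox6b1, a complex IV subunit on the intermembrane side where the dimer meets, was at 4.61, 4.56, 4.43 and 4.22 in HFD-UNX kidneys, against 3.70, 3.48, 3.60 and 3.83 in LFD-UNX kidneys. The groups did not overlap. The difference was 0.80 ± 0.21 (1.74-fold; SE, limma adjusted p = 0.023), and with slides 1 and 2 as a fixed block it was 0.50 and did not pass (adjusted p = 0.063). In sham mice it was at 4.74, 3.84 and 3.44 on the high-fat diet, against 3.61, 3.65, 3.50 and 3.60 on the low-fat diet, where HFD-sham replicate 1 stood far above the others and the groups overlapped. The sham difference was 0.41 ± 0.23 (SE, adjusted p = 0.24).

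Ndufab1 is an accessory subunit of complex I that also serves as the acyl carrier protein of mitochondrial fatty acid synthesis. It was at 0.63, 0.77, 1.14 and 1.10 in HFD-UNX kidneys, against 1.47, 1.17, 1.65 and 1.56 in LFD-UNX kidneys. The groups came within a short distance of each other without overlap. The difference was -0.55 ± 0.16 (SE, limma adjusted p = 0.034), -0.76 with the slide 1 high-fat arrays and -0.34 with the slide 2 arrays, where it did not pass (adjusted p = 0.15). With slides 1 and 2 as a fixed block it was -0.36 and did not pass (adjusted p = 0.10).

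Sdhc, a membrane anchor of succinate dehydrogenase, was at 4.71, 4.72, 4.52 and 4.43 in HFD-UNX kidneys, against 5.0, 4.89, 5.03 and 4.99 in LFD-UNX kidneys, again without overlap. The difference was -0.38 ± 0.11 (SE, limma adjusted p = 0.036). A further probe of Sdhc differed by 0.17, in the other direction, and the mean of its probes gave -0.11 (adjusted p = 0.54). In sham mice the difference of the chosen probe was -0.36 ± 0.12 (adjusted p = 0.059).

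**Figure D1:**
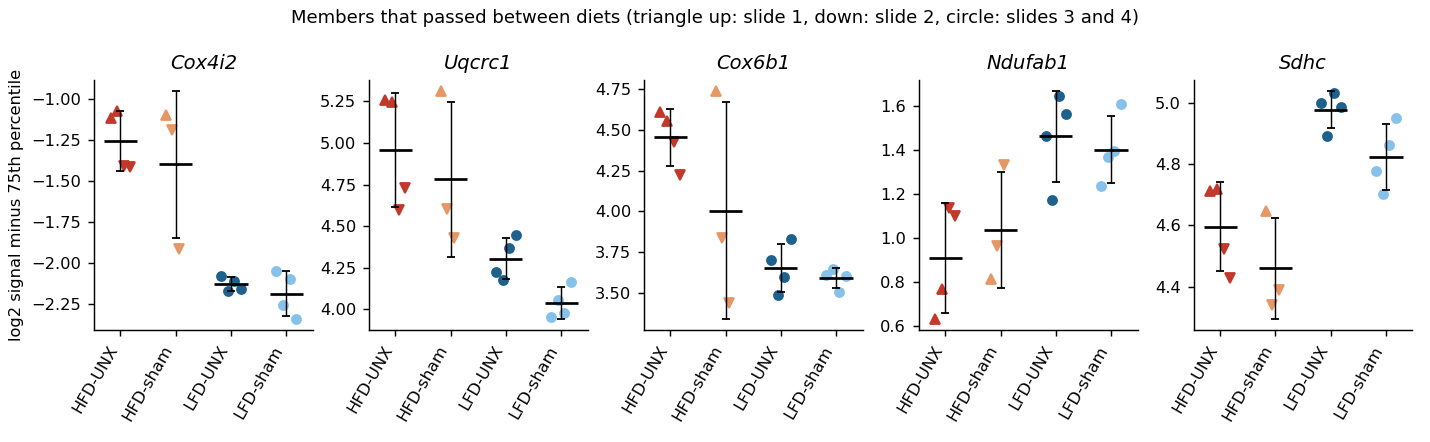
Levels of the 5 genes that passed between diets, as log2 signal minus the array's 75th percentile, on each of the 15 arrays, with the group mean and SD. Upward triangles are slide 1, downward triangles slide 2 and circles slides 3 and 4; Cox4i2 and Uqcrc1 lie higher on all 7 high-fat arrays than on the low-fat arrays of the same surgery.

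Leaving out single arrays ended several of these calls. Cox6b1 lost its call in UNX mice without HFD-UNX replicate 1 or 2 or LFD-UNX replicate 2 or 3, at 0.74 to 0.78 and adjusted p of 0.056 to 0.061. Uqcrc1 in sham mice lost it without HFD-sham replicate 1, at 0.48 (adjusted p = 0.11), and at 0.72 to 0.83 without HFD-sham replicate 2 or LFD-sham replicate 1, 2 or 3. Uqcrc1 in UNX mice lost it without any one of the arrays except HFD-UNX replicates 3 and 4. Ndufab1 lost it without HFD-UNX replicate 1 or 2 or LFD-UNX replicate 1, 3 or 4, and Sdhc without HFD-UNX replicate 4 or any one LFD-UNX array. Cox4i2 in UNX mice kept its call in each of these fits.

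Promoter sequence is shown for the members that passed between diets and have an entry in RefSeq's promoter table (GRCm38.p6), with Cox6a1 as an example, chosen after the search, that holds both motifs. Each is the 250 bases before the annotated start, 5′ to 3′ on the gene's strand, and capitals mark a match on either strand to CGCATGC, the core of the NRF1 element, or the ETS core CCGGAAG that GABPA binds, the classical elements of respiratory chain promoters. They come from chr9:108936398-108936647 (plus strand) for Uqcrc1, chr7:30626115-30626364 (minus) for Cox6b1, chr7:122101849-122102098 (minus) for Ndufab1 and chr5:115348959-115349208 (minus) for Cox6a1.
Uqcrc1: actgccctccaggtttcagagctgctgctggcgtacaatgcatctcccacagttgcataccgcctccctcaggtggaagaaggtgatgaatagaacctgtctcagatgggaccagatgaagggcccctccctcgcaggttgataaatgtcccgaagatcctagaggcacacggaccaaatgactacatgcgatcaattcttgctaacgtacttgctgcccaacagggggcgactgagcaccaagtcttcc
Cox6b1: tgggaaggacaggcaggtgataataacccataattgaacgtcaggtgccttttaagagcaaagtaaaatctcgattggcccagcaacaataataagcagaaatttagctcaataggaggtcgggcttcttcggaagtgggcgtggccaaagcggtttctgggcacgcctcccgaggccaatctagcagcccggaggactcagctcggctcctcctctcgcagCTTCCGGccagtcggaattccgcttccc
Ndufab1: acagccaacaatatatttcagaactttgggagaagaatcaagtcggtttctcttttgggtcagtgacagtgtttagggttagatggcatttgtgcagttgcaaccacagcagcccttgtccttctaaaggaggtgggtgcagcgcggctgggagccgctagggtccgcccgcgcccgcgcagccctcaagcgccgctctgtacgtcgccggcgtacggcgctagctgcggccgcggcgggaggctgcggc
Cox6a1: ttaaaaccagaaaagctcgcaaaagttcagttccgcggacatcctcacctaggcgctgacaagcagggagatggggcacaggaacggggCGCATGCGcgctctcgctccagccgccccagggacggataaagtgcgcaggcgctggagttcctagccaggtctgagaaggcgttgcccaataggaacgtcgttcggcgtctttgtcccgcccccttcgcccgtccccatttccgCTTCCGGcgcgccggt

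In these windows Cox6b1 holds 1 ETS core and Cox6a1 holds 1, with 2 overlapping NRF1 cores on opposite strands, while the NRF1 core of Uqcrc1 begins 31 bases after the start, outside the stretch printed. Over the full 300-base entries, 80 of the 97 genes have a promoter in the table. The NRF1 core was in 13 of those 80 (16.2%), among them Atp5g2, Atp5k, Ndufa11 and Ndufaf4, where 6.1% of 12724 tested genes and 3.58% of all 32851 promoters held it. The ETS core was in 22 of 80 (27.5%), among them Sdhb, Sdhd, Ndufs3, Ndufs8 and Uqcrh, where 16.4% of tested genes and 8.86% of all promoters held it. A match describes the letters in the window. Of the 3 genes that passed between diets with an entry, Uqcrc1 and Cox6b1 held a match and Ndufab1 held none of these letters.

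By complex, the members moved little and not alike. On the high-fat diet the median difference in sham mice was -0.14 for the complex I core subunits, -0.17 for the accessory subunits, -0.06 for complex II, -0.06 for complex III, -0.04 for complex IV and -0.05 for complex V, against -0.02 for all genes. In UNX mice the same medians were -0.12, -0.07, -0.10, -0.02, 0.00 and -0.01, against -0.01 for all genes. Over all 95 members the median was -0.09 in sham and -0.03 in UNX mice. After cyclic loess the sham medians of complexes II, III, IV and V lay above 0, at 0.04, 0.04, 0.06 and 0.06, that of all members in UNX mice was 0.01, and after quantile normalization the UNX median of complex IV was -0.13. Of 30 further probes of the members, 12 had the sign of the chosen probe in sham mice and 17 in UNX mice. Of the 95, 27 lay above 0 in sham mice, where 48.2% of all genes did, and 42 in UNX mice, where 48.9% did. With quantile normalization 33 and 39 lay above 0, and with cyclic loess 47 and 49.

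**Figure D2:**
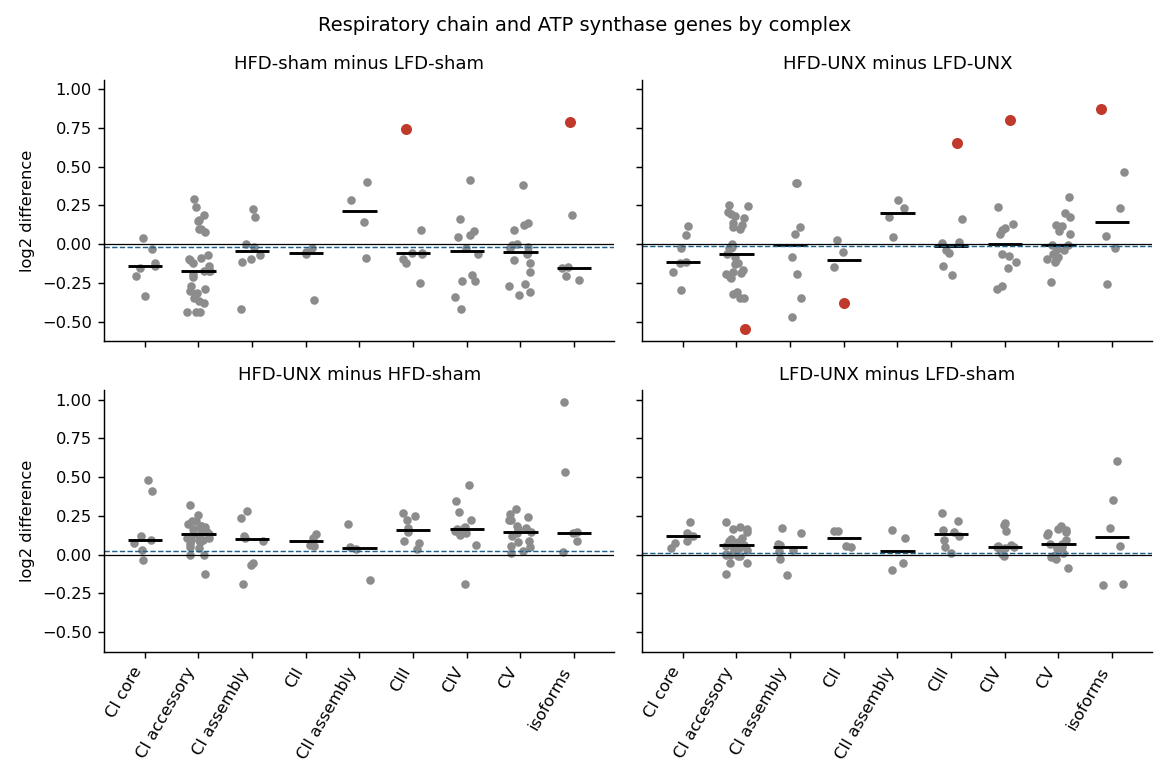
Log2 difference of each of the 95 tested genes (points) in the 4 comparisons, grouped by complex (CI to CV), with the median of each group as a black bar and the median of all 16032 genes as a dashed line. Red points passed; the group medians lie between -0.17 and 0.21 in the diet panels, where several change sign with the scaling, and in the surgery panels every group's median lies above 0, except that on the high-fat diet complex I core subunits and complex II turn to -0.01 and -0.03 after quantile normalization, and complex II to -0.01 after cyclic loess.

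High-fat and low-fat groups did not overlap for 21 of 95 members in sham mice, where 26.2% of all genes did not, and for 10 of 95 in UNX mice, where 22.5% did not. In sham mice the lowest adjusted p among genes that did not pass belonged to complex I accessory subunits. Ndufb7 was at 5.88, 5.71 and 5.35 on the high-fat diet, against 6.29, 5.93, 6.05 and 6.09 on the low-fat diet, a difference of -0.44 ± 0.14 (SE, limma adjusted p = 0.050). Ndufb8 was at 6.21, 5.66 and 5.91, against 6.40, 6.42, 6.28 and 6.34, a difference of -0.44 ± 0.14 (adjusted p = 0.052). Neither group of values overlapped, and neither gene passed.

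Next in order, with no call, came Sdhc (above), Ndufa13 at -0.44 (adjusted p = 0.095), Ndufb10 at -0.38 (adjusted p = 0.10), Sdhaf1, a complex II assembly factor, at 0.28 (adjusted p = 0.10) and Ndufa6 at 0.29 (adjusted p = 0.20). Of the central subunits not given above, Ndufs1 differed by -0.12 in UNX and 0.04 in sham mice, and Ndufv1 by -0.12 in both. In the same order, Sdha differed by -0.15 and -0.05, Sdhb by 0.03 and -0.02, and Cox5a by -0.29 and -0.24. Atp5a1 differed by -0.10 and -0.18, and Atp5b by -0.10 and -0.05. None of these passed (adjusted p of 0.27 to 0.94 over both comparisons).

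Removal of a kidney makes the remaining one enlarge, and the question was whether its respiratory chain genes change with it. On the low-fat diet 0 of 95 members passed with limma between UNX and sham kidneys, where 0.00624% of all genes did (1 gene), and 0 had an unadjusted p under 0.05, where 3.24% of all genes had. The median was 0.07, and 77 of 95 members lay above 0, where 52.2% of all genes did. Among cell type markers none passed here. The median was 0.15 for 16 proximal tubule markers, -0.21 for 7 podocyte, -0.17 for 7 endothelial and -0.60 for 8 fibroblast markers. It was -0.66 for 8 white and general adipocyte, 0.48 for 6 brown adipocyte and -0.32 for 9 muscle markers. The remaining lists had medians of 0.15 (thick limb, distal tubule and collecting duct), -0.20 (lymphocyte), -0.06 (macrophage) and 0.25 (liver). All 8 fibroblast markers lay below 0, with 5 at an unadjusted p under 0.05, and the part of these cell types in the members' values was not tested. Uqcrc1 was at 4.23, 4.18, 4.37 and 4.45 in LFD-UNX kidneys, against 3.95, 4.06, 3.98 and 4.16 in LFD-sham kidneys. It differed by 0.27 ± 0.19 (SE, limma adjusted p = 1.00) and did not overlap between groups. Over all members, 2 of 95 did not overlap, Uqcrc1 and Atp5a1, where 4.58% of all genes did not.

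Other members with the lowest unadjusted p here were Cox6a2 at 0.35 ± 0.22, Sdhc at 0.15 ± 0.11, Uqcr10 at 0.22 ± 0.16 and Ndufa10 at 0.21 ± 0.16 among the higher ones (SE). Among the lower ones were Ndufa4l2 at -0.20 ± 0.24, Ndufa5 at -0.12 ± 0.18, Sdhaf2 at -0.10 ± 0.14, Cox6b2 at -0.19 ± 0.28 and Atp5g2 at -0.08 ± 0.13 (SE). None of them passed. The central subunits lay between 0.06 (Sdhb) and 0.27 (Uqcrc1), and the further probes had the sign of the chosen probe for 20 of 30.

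On the high-fat diet the surgery comparison again gave 0 of 95 members past the threshold with limma, where 0.0% of all genes passed. A total of 3 members had an unadjusted p under 0.05, where 4.63% of all genes had. Among these were Ndufs8, an iron-sulfur subunit of complex I, at 0.41 ± 0.18, and Cox6a2, the muscle and heart isoform of a complex IV subunit, at 0.53 ± 0.23 (SE). Next by p, with no call, were Cox6b1 at 0.45 ± 0.23 and Cox5b at 0.35 ± 0.19 among the higher members, and Sdhaf1 at -0.16 ± 0.11, Ndufaf4 at -0.19 ± 0.15, Ndufab1 at -0.13 ± 0.17, Ndufa4 at -0.19 ± 0.26 and the complex I assembly factor Ndufaf7 at -0.06 ± 0.11 among the lower ones (SE). The central subunits lay between -0.04 (Ndufs1) and 0.25 (Uqcrfs1), and the further probes had the sign of the chosen probe for 27 of 30. The median was 0.14, and 86 of 95 members lay above 0, where 54.7% of all genes did. Without HFD-UNX replicate 3 the median was 0.04 and 65 lay above 0, without HFD-sham replicate 3 they were 0.07 and 66, and without HFD-sham replicate 1 they were 0.24 and 83. HFD-UNX and HFD-sham groups did not overlap for 0 members, where 2.92% of all genes did not.

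The members' position relative to 0 on the high-fat diet differed between the slides. On slide 1, with 2 HFD-UNX arrays and 1 HFD-sham array, the median difference of the members was -0.22, and 14 of 95 lay above 0, where 45.2% of all genes did. On slide 2, with 2 arrays of each group, the median was 0.43 and 89 of 95 lay above 0, where 57.0% of all genes did. On slide 2, 20 of 95 members passed as higher, where 2.73% of all genes did; on slide 1, 0 did, where 0.0125% of all genes did. The single sham array on slide 1 was assumed to vary like the others.

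Within slide 2, the genes that passed were 7 of 29 complex I accessory subunits, 2 of 8 subunits of complex III, 5 of 12 of complex IV and 6 of 17 of complex V. No complex I core subunit, complex II subunit, assembly factor or isoform was among them. Cox5b, a zinc-binding subunit of complex IV, was at 6.09 and 6.12 on the HFD-UNX arrays, against 5.39 and 5.27 on the HFD-sham arrays, a difference of 0.77 ± 0.13 (SE, limma adjusted p = 0.026). On slide 1 it was at 5.48 and 5.23 on the HFD-UNX arrays, against 5.49 on the HFD-sham array. The arrays of slide 1 showed no step between the groups and those of slide 2 showed one.

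Other members high on the HFD-UNX arrays of slide 2 were Cox6c at 0.79 ± 0.15, Ndufb3 at 0.54 ± 0.11, Atp5j at 0.48 ± 0.10 and Uqcrfs1 at 0.58 ± 0.12 (SE). Of the 95 members, 78 lay below 0 on slide 1 and above 0 on slide 2 (82.1%), as did 35.6% of all genes. When the UNX minus sham difference of slide 1 was tested against that of slide 2, a comparison added after seeing the data, 7 members passed as lower on slide 1, where 1.02% of all genes did: Ndufa11, Ndufb3, Ndufb11, Ndufs5, Cox6c, Cox7a2 and Atp5g1. For these, the slide 1 difference minus the slide 2 difference was -1.12 to -0.95.

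**Figure D3:**
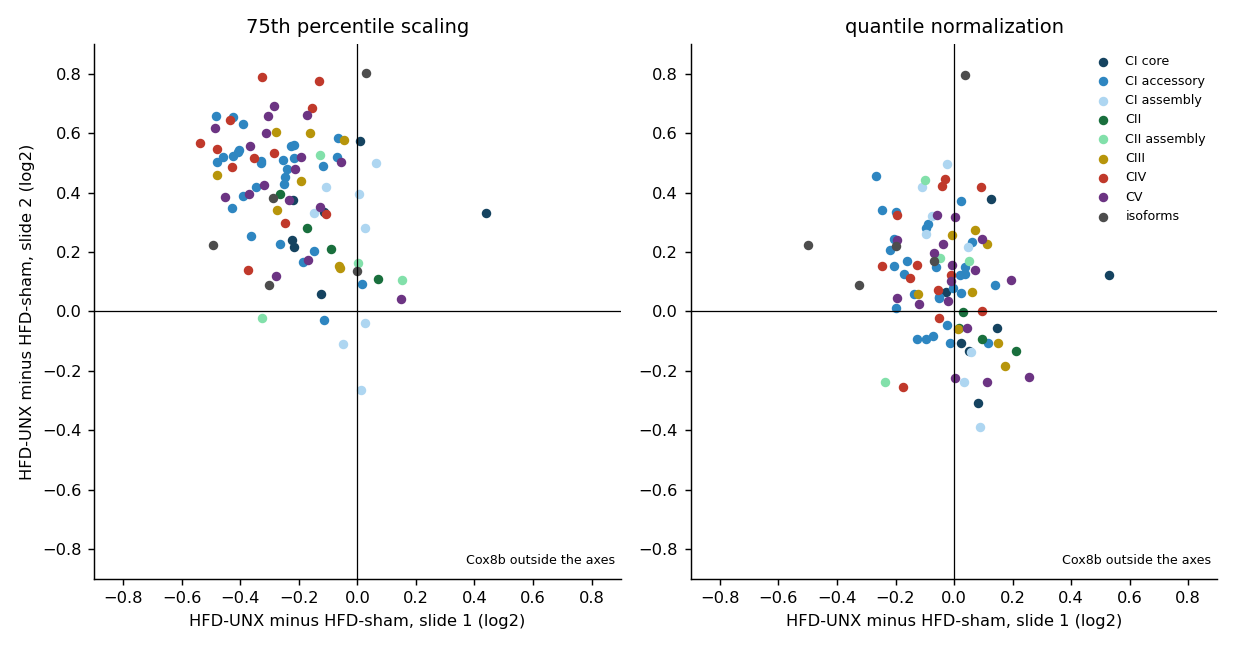
The high-fat UNX minus sham difference of each member on slide 1 (horizontal, log2) against slide 2 (vertical, log2), with each array's 75th percentile subtracted (left) and after quantile normalization (right). The left cloud sits below 0 on slide 1 and above 0 on slide 2; after quantile normalization it lies nearer 0 on both, and Cox8b falls outside the axes in each panel.

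This slide pattern changed with the scaling. After quantile normalization the members' median was -0.02 on slide 1 and 0.12 on slide 2, and after cyclic loess -0.02 and 0.13, and no member passed within a slide or in the test of one slide's surgery difference against the other's. The overall median of 0.14 became 0.03 and 0.05. On each array, the members' median distance from their mean over 15 arrays was -0.17, -0.20, 0.28 and 0.16 in HFD-UNX, 0.10, -0.13 and -0.29 in HFD-sham, 0.04, -0.08, 0.06 and 0.20 in LFD-UNX and 0.01, -0.03, -0.05 and 0.04 in LFD-sham. Other lists were also lower on slide 1 than on slide 2 in HFD-UNX: the mean of the 16 proximal tubule markers was 5.56, 5.56, 5.86 and 5.81 in HFD-UNX and 5.82, 5.58 and 5.35 in HFD-sham. The median distance of the 10 carriers and cytochrome c genes was -0.28, -0.28, 0.27 and 0.18 in HFD-UNX and -0.10, -0.33 and -0.23 in HFD-sham, and that of 77 mitochondrial ribosomal proteins -0.17, -0.22, 0.12 and 0.13 in HFD-UNX and -0.02, -0.23 and -0.10 in HFD-sham. The members' lowest value and the brightest array (HFD-sham replicate 3) coincide. After quantile normalization the values ran from -0.13 to 0.10. The part of array brightness or of proximal tubule content in the members' differences was not tested.

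**Figure D4:**
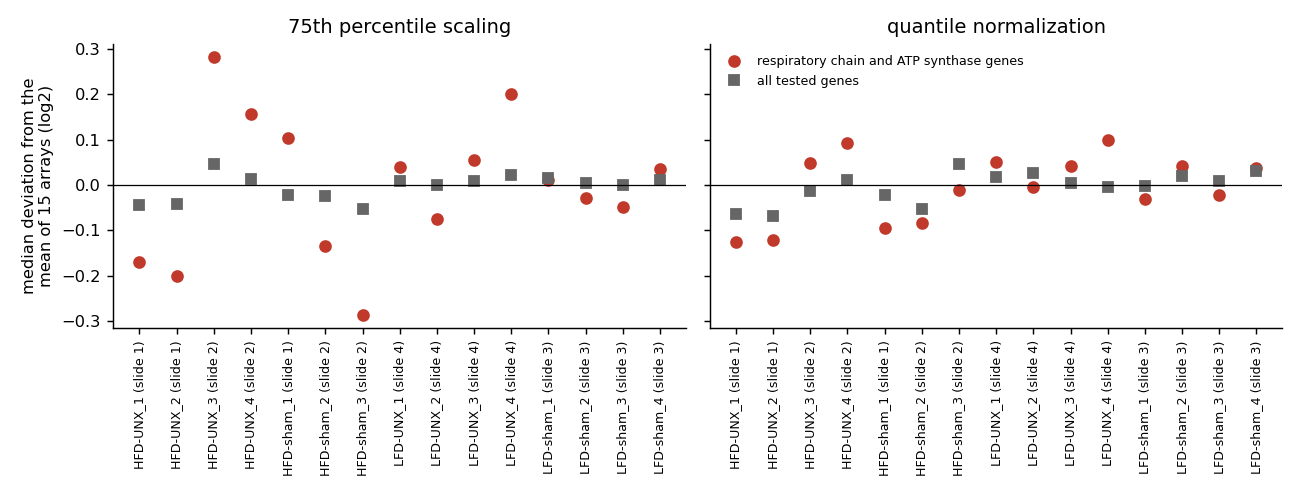
For each array (horizontal, with its slide), the median over the tested members of the log2 distance from their mean over the 15 arrays (circles) and the same over all tested genes (squares), under both scalings. The members' medians span -0.29 to 0.28 with the 75th percentile subtracted and -0.13 to 0.10 after quantile normalization, and all 4 LFD-sham arrays lie near 0.

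The interaction asked whether surgery differed by diet. With limma 0 of 95 members passed, where 0.0% of all genes did, and 0 had an unadjusted p under 0.05, where 1.36% of all genes had. The median was 0.07, and 65 of 95 lay above 0, where 53.2% of all genes did; after quantile normalization and cyclic loess the median was -0.01. The lowest p above 0 belonged to Cox6b1 at 0.39 ± 0.31, Cox5b at 0.30 ± 0.26, Ndufs8 at 0.27 ± 0.24, Atp5h at 0.29 ± 0.26 and Atp5g2 at 0.20 ± 0.19 (SE). Below 0 they belonged to the complex I assembly factor Ndufaf4 at -0.33 ± 0.20, Ndufs1 at -0.16 ± 0.16, Ndufab1 at -0.19 ± 0.23, Sdhaf1 at -0.11 ± 0.15 and Ndufa4 at -0.24 ± 0.35 (SE). Among the cell type lists the median farthest from 0 was 2.44, for the 8 white and general adipocyte markers, all above 0. Their part in the members' values was not tested.

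Between slides 1 and 2 of the high-fat arrays, with surgery in the fit, 3 members were higher on slide 1 (where 4.53% of all genes were) and 1 was lower (where 2.6% were). Ndufaf8, a complex I assembly factor, was at -1.23 and -1.35 on the HFD-UNX arrays of slide 1, against 0.39 and 0.21 on those of slide 2. Its HFD-sham arrays were at -1.35 on slide 1, against -0.25 and -0.15 on slide 2, so the slides did not overlap, and the difference was -1.42 ± 0.16 (SE, limma adjusted p = 0.0095). Among those higher on slide 1 were Atp5d, the delta subunit of the ATP synthase rotor, at 0.71 ± 0.17 and Uqcrc1 at 0.67 ± 0.14 (SE, adjusted p of 0.049 and 0.042). Also at the ends of the order, with no call, were Cox6b2 at 0.90 ± 0.24, Cox8b at 0.86 ± 0.84, Ndufb2 at -0.82 ± 0.20 and Ndufa8 at -0.75 ± 0.19 (SE). Of 7 macrophage markers tested, 3 were also higher on slide 1: C1qa by 1.30, C1qb by 1.33 and Lyz2 by 1.33 (adjusted p of 0.016 to 0.036). Their part in the slide differences was not tested.

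Besides Cox4i2, the tissue isoforms did not pass in any of the 5 group comparisons. Cox7a1, used in heart, muscle and brown fat, differed by -0.26 between diets in UNX mice and -0.23 in sham mice. Ndufa4l2, a hypoxia-induced relative of complex IV subunit Ndufa4, differed by 0.06 and -0.16. Cox6b2, the testis relative of Cox6b1, differed by 0.46 and 0.19, and Cox6a2 by -0.03 and -0.20.

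Cox8b encodes the subunit 8 isoform of heart, skeletal muscle and brown fat, and it varied most among the tested isoforms. Its levels were -1.68, 0.46, -3.19 and -2.88 in HFD-UNX, -3.80, -2.43 and -2.20 in HFD-sham, -1.64, -2.41, -4.64 and 0.46 in LFD-UNX and -4.49, -0.75, -3.46 and -1.93 in LFD-sham kidneys. Each group covered a wide range, and the highest arrays, HFD-UNX replicate 2 and LFD-UNX replicate 4, came from different diets. Diet gave 0.23 ± 1.06 in UNX and -0.15 ± 1.14 in sham mice, and surgery 0.98 ± 1.14 with high-fat and 0.60 ± 1.06 with low-fat feeding (SE).

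Those same arrays were highest for Ucp1, the uncoupling protein of brown fat, at 0.88 and -0.09, and for Cidea, a lipid droplet protein of brown fat, at 0.82 and 1.04. Over all 15 arrays, Cox8b and the mean of the 6 measured brown adipocyte markers had Pearson's r = 0.938 (permutation p = 2e-05, adjusted over the 6 isoforms compared 0.00012) and Spearman's rho = 0.932 (permutation p = 2e-05, adjusted 0.00012), the smallest p these permutations can give. Without the 2 arrays farthest from the median of the markers, r was 0.879. Within the 7 high-fat arrays r was 0.937 (exact permutation p = 0.0044), and within the 8 low-fat arrays 0.947 (exact permutation p = 0.0012). The mean marker level ran from -4.05 to -2.24 in HFD-UNX and -3.97 to -3.12 in HFD-sham kidneys. In LFD-UNX it ran from -4.68 to -2.19 and in LFD-sham from -4.44 to -3.08. Of the 6 markers, 4 were well above background on all 15 arrays, and Ucp1 was on 12. Ucp1 was at -7.72 on LFD-UNX replicate 3 and at -7.09 and -6.74 on LFD-sham replicates 1 and 3. The lowest well-above signals there were -5.84, -5.22 and -5.75. By the markers' median distance from their means, HFD-UNX replicate 2 (0.32) lay below LFD-UNX replicates 1 and 4 (both 0.55).

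**Figure D5:**
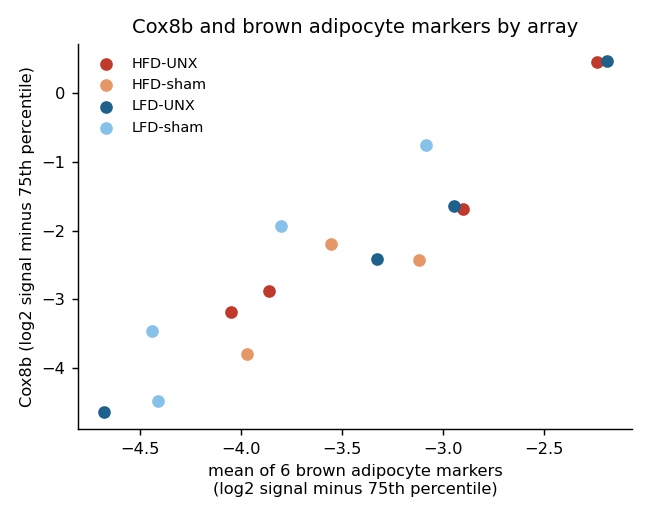
Cox8b (vertical) against the mean of 6 brown adipocyte markers (horizontal) on each of the 15 arrays, both as log2 signal minus the array's 75th percentile and coloured by group. The 2 arrays at the top right, one from HFD-UNX and one from LFD-UNX, both have Cox8b at 0.46, and the groups are spread along the same line.

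The other 5 isoforms gave r of -0.231 to 0.203 with these markers over the 15 arrays (adjusted permutation p of 0.93 to 0.94). Among them Cox7a1, also used in brown fat, had r = -0.0239, with -0.329 within the high-fat and 0.372 within the low-fat arrays. The marker mean is of log2 levels, so a marker with a wide range, such as Ucp1 (-7.72 to 0.88), weighs more in it. The arrays share their scaling, the pattern was noticed before it was computed, and the part of brown fat cells in the Cox8b values was not tested. Of the 17 skeletal and cardiac muscle markers, 9 passed the filter on dim probes and 4 were well above background on all 15 arrays.

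Genes around the machinery were compared from lists chosen beside the members. Of all genes, 13.9% passed between diets in sham and 14.2% in UNX mice. The calls on list genes are from the main fit, without the checks by slide or single array given for the members. Of 10 tested carriers and cytochrome c genes, 2 were lower on the high-fat diet in sham mice and 1 in UNX mice. Slc25a3, which carries phosphate for the ATP synthase into the matrix, was at 4.04, 4.02, 5.13 and 4.77 in HFD-UNX kidneys, against 5.25, 5.11, 5.31 and 5.34 in LFD-UNX kidneys. The HFD-UNX values were 4.04 and 4.02 on slide 1 but 5.13 and 4.77 on slide 2, so the gap to LFD-UNX was mostly on slide 1. The highest HFD-UNX value, on slide 2, lay just above the lowest LFD-UNX value, so the groups overlapped there. Slc25a3 differed by -0.76 ± 0.21 in UNX mice (SE, limma adjusted p = 0.027) and -0.88 ± 0.23 in sham mice (adjusted p = 0.022). Vdac1, an outer membrane channel, differed by -0.48 ± 0.15 in sham mice (adjusted p = 0.042).

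Of 33 tested assembly factors named outside the rule, 1 was higher and 2 lower on the high-fat diet in sham mice (9.09%). In UNX mice 2 were higher and 3 lower (15.2%). The shares of all genes were 13.9% and 14.2%. Atpaf1, a chaperone of the ATP synthase, differed by 0.79 ± 0.13 in UNX and 0.69 ± 0.14 in sham mice (SE, limma adjusted p = 0.0021 and 0.0079). It was dim, and well above background on 14 arrays. On the low-fat arrays it was at -5.46 to -5.23, near the lowest well-above signals there of -5.94 to -5.22. On LFD-sham replicate 1 it lay below that signal, at -5.35 against -5.22. How far this floor set the size of the Atpaf1 differences was not tested. Uqcc2, a complex III assembly factor, differed by -0.87 and -0.74, Cox19 by -0.42 and -0.45, and in UNX mice Acad9, which assembles complex I, passed at -0.68 and Cox10, a haem A synthesis enzyme, at 0.71.

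Of 21 biogenesis regulators, 2 passed as higher in both comparisons (9.52%) and 0 passed as lower. They were Esrrg, an orphan receptor that acts on mitochondrial genes, and Pprc1, a PGC-1 relative. Of the 21, 13 lay below 0 in each comparison, with medians of -0.06 in UNX and -0.02 in sham mice. Esrrg was 0.70 ± 0.19 in UNX and 0.94 ± 0.20 in sham mice, and Pprc1 0.93 ± 0.18 and 0.72 ± 0.20 (SE, limma adjusted p of 0.0053 to 0.029). Gabpa and Tfb2m were lower on slide 1 than on slide 2, by -0.95 and -0.72. Of 17 genes listed for the citric acid cycle and the pyruvate dehydrogenase that feeds it, 1 passed, Pdha1 of pyruvate dehydrogenase, at 0.53 in UNX and 0.57 in sham mice, and of 77 mitochondrial ribosomal proteins 4 were higher and 2 lower in UNX and 5 higher and 5 lower in sham mice.

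In the surgery comparisons and the interaction, no member of these lists passed. Among cell type markers, 4 of 10 lymphocyte genes were higher on the high-fat diet in UNX and 2 of 10 in sham mice, where 7.68% and 6.49% of all genes were. Their mean level ran from -3.07 to -2.16 in HFD-UNX and -2.71 to -2.32 in HFD-sham, against -3.78 to -3.34 in LFD-UNX and -3.57 to -3.12 in LFD-sham. Of 18 thick limb, distal tubule and collecting duct markers, Pvalb was higher and Foxi1, Slc26a4 and Atp6v0d2 were lower in both diet comparisons. Of 16 proximal tubule markers, Slc13a3 was higher in both, at 0.60, and Slc5a12 lower in UNX mice, at -0.70. Of 8 liver markers, Ttr was higher in both, at 1.53 in UNX and 1.73 in sham mice, with Ahsg lower in UNX mice, at -5.56, and Hp lower in sham mice, at -2.24. Of 8 white and general adipocyte markers, Lep was higher in UNX mice, at 2.59, and Cfd lower in sham mice, at -2.90. In sham mice all 8 lay below 0, with a median of -2.18 and 5 at an unadjusted p under 0.05. In UNX mice 7 lay above 0, with a median of 0.24 and 2 at an unadjusted p under 0.05. The median distance of these markers from their means was -2.62, -1.78 and 0.25 on HFD-sham replicates 1, 2 and 3. Of 10 lymphocyte markers, 6 were well above background on all 15 arrays. The part of these cell types in the members' diet differences was not tested.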

How the data were processed

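The files hold intensity values that the authors extracted in Agilent's scanner software (Feature Extraction 10.7 in the submitters' processing notes); per the file headers they are background-subtracted, and no scaling between arrays was found. A second deposited table repeats these intensity signals after rounding. Here each array's 75th percentile, taken without control probes, was subtracted on the log2 scale, outlier-marked spots were dropped, and repeated spots of a probe were averaged. Probes were named through RefSeq accessions (GRCm38.p6 names; the array design names mm9). A probe had to be well above background on 3 or more of the arrays, and the brightest probe stood for its gene. The limma model (limma 3.58.1, statmod 1.5.0, R 4.3.3) gave each group a mean, with 15 arrays in 1 fit; two-sided p-values were adjusted by Benjamini-Hochberg over 16032 genes. The slide effect was fitted on the 7 high-fat arrays with surgery as a term. The fit was tested on simulated data.

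Members, lists and tests were chosen with earlier results of these data known. Named genes were the members that passed (where fewer than 5 did, the 5 lowest p in each direction), 10 central subunits, the isoforms, the slide extremes and members of other lists that passed; Uqcrc2, Cox6a1, the members named within slides or between them beyond this rule, and the markers were named after their values were seen. Results of 1 member are not reported here by name. Deviations of same-numbered HFD-UNX and HFD-sham arrays correlated at 0.436, 0.122 and 0.332, partly along slides; other same-numbered arrays gave -0.153 to 0.080. Alternatives changed scaling, background, filter, probe choice, blocks, arrays and threshold; normexp used the median spot signal.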

Additional observations from a re-analysis of the deposited data

Results flagged for a closer look

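Of 122 groups of 4 arrays checked for 1 array far from the others, 8 were marked, where chance marks about 1 in 20. LFD-UNX replicate 4 stood above its group for Atp5a1 at 6.57 (others 6.36 to 6.38) and Ndufaf8 at -0.71 (-0.96 to -0.93). LFD-UNX replicate 1 stood below for Cox6b2 at -0.61 (-0.46 to -0.45). HFD-UNX replicate 3 stood above for Atp5b at 7.64 (7.14 to 7.22). LFD-sham replicate 1 stood above for Atp5h at 6.57 (6.35 to 6.38) and Cox7a1 at 3.02 (2.78 to 2.80), replicate 2 for Ndufb2 at 4.04 (3.89 to 3.91) and replicate 4 for Ndufs1 at 5.40 (5.22 to 5.24).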

How the results depend on the processing

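Of the members, 2 passed between diets in sham mice. The count was 9 with quantile normalization, 6 with cyclic loess, 5 with no filter on dim probes, 4 with a filter on all 15 arrays and 8 with slides 1 and 2 as a fixed block. It was 0 with normexp, with only the groups compared, with slide as a random block and at a threshold of 0.01, and 6 at 0.1. In UNX mice the count of 5 became 12 with quantile normalization, 1 with normexp, 3 with only the groups compared, 0 with slide as a random block, 1 at a threshold of 0.01 and 8 at 0.1. With the high-fat arrays of 1 slide, an alternative added after seeing the data, the sham count was 11 (slide 1) and 21 (slide 2), 14 and 15 after cyclic loess and 21 and 21 after quantile normalization, with medians of 0.090 and -0.18 (20.7% and 24.7% of all genes, 22.6% and 25%, and 22.3% and 24.1%). The UNX counts were 42 and 18, 22 and 16, and 45 and 17, with medians of -0.24 and 0.16 (41.1% and 16.7% of all genes, 38.5% and 18.6%, and 40.2% and 17.7%). Uqcrfs1 in UNX mice turned to -0.34 with the slide 1 arrays, and to -0.27 after quantile normalization. Within slides, surgery on the high-fat diet had medians of -0.22 and 0.43, with 20 members passing on slide 2. Between slides the count of 4 became 7 (cyclic loess), 8 (quantile), 1 at 0.01 and 10 at 0.1. Except where a share of all genes is given here or above, the counts of members in this section stand without one. Such counts show how the calls depend on the setting, not whether the members differ from other genes. The causes were not tested. Leaving out single arrays gave 0 to 9 in sham and 1 to 7 in UNX mice, and 0 in the surgery comparisons and the interaction, with medians of -0.18 to -0.06, -0.11 to 0.05, 0.04 to 0.24 (surgery, high-fat), 0.01 to 0.12 (surgery, low-fat) and -0.02 to 0.17 (interaction). With the replicate number as a block, the pairing left the counts at 2 and 5 between diets and 0 for surgery and the interaction, and the high-fat surgery median at 0.11; within the high-fat groups alone it was 0.10, with 0 members. Sdhc in UNX mice missed the threshold with that block (limma adjusted p = 0.057), and no other call on a named gene changed. For single named genes, 2384 values kept their call or moved by under 1 SE, 56 lost a call, 82 gained one and 177 moved by more. The sign differed for 229 of these 2701 values, of which the 2 of Uqcrfs1 above passed with the other sign. The number of arrays limits the precision.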
